A study of Mus musculus with 8 samples.

Results

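This account concerns 10 genes of amino acid supply and of the stress response run by the transcription factor ATF4, among 16593 genes named on the array. They are Asns, Psat1, Phgdh, Bcat1, Slc7a5, Slc3a2, Sesn2, Atf4, Ddit3 and Trib3, found by the symbol of the probe, and together they had 16 probes. The genes were chosen with their signals between the CD69+ and CD69- fractions of these arrays already known, so that contrast is described for them without a test. All 10 were among the 7403 genes that passed the detection filter, a detection p under 0.01 on at least 2 arrays.

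T cells came from the spleen and lymph nodes of male C57BL/6 mice in 4 states. Naive mice were healthy and had no graft. The other recipients carried full-thickness tail skin from BDF1 mice, hybrids of C57BL/6 with DBA/2: rejecting mice were untreated and taken on day 7, while early tolerant mice, taken on day 21, and tolerant mice, taken on day 100, had received a transfusion of donor cells with MR-1, an antibody to CD40L. Bone marrow-derived dendritic cells of the donor strain stimulated all of these T cells in a coculture of 20 to 21 hours, after which the T cells were sorted by CD69, a surface protein that appears soon after T cell activation. Each of the 4 states gave 1 CD69+ and 1 CD69- array, 8 in all, so no state had a replicate, and precision is limited by so few arrays. How many mice contributed to a sample is not stated in the labels used here, and no array came from T cells cultured without dendritic cells. The sorting text of the labels writes both fractions alike as CD3+ CD69+, so the fraction was taken from the sample titles.

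Activated T cells take up and make amino acids for growth. When amino acids run short, the kinase GCN2 phosphorylates the initiation factor eIF2 alpha, and the kinase PERK, which senses stress in the endoplasmic reticulum, does the same. Most translation then slows while ATF4 protein is made, and ATF4 turns on genes of amino acid synthesis and transport together with the stress genes Ddit3, Trib3 and Sesn2. In activated T cells ATF4 targets can also be turned on through mTORC1, the growth kinase complex. Much of the control of ATF4 lies in its translation, which an array does not measure.

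Between 37.3% and 40.1% of the 25697 probes were detected per array, and median signals before normalization were 107 to 119. Of 9 pan T cell markers with a probe, all were detected on all 8 arrays. In limma 7 of these 9 were lower in CD69+ cells, none was higher and 2 did not pass, with a median log2 difference of -0.88. Of 22 dendritic and myeloid markers with a probe, 12 to 17 were detected on CD69+ arrays and 10 to 12 on CD69- arrays, and their summed signal was 2232 to 7336 on CD69- arrays against 4906 to 44477 on CD69+ arrays. Itgax, Itgam, Flt3, Cybb and Spi1 of that list were detected on no array. Of 5 B cell markers with a probe, Cd79b alone was detected. Of the 17 dendritic and myeloid markers tested, 16 were higher and 1 lower in CD69+ cells in limma. Among the 16, Ccl22, Tyrobp, Cd14 and Aif1 were detected on no CD69- array and passed the filter through CD69+ arrays alone. Within the CD69+ arrays the summed dendritic and myeloid signal was lowest in rejecting cells at 4906, followed by naive cells at 12522, early tolerant cells at 32400 and tolerant cells at 44477. Bright probes weigh most in this sum, such as Lyz2, with 16133 in tolerant CD69+ cells. Over the 17 tested markers the median log2 difference of rejecting from naive CD69+ cells was -1.33. Cd80, named after its values were seen, was instead highest in rejecting CD69+ cells, at 713. What part dendritic and myeloid cells had in the signals given below was not tested. In such samples fewer cells of a type and less RNA per cell cannot be told apart.

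Signals below are normalized signals after background correction, on a linear scale that includes an offset of 16, and differences are log2 differences of these signals. They compare 1 gene between arrays and say nothing of 1 gene's level against another's. Asns encodes asparagine synthetase, which makes asparagine from aspartate and glutamine and is a classic ATF4 target. Its signal in CD69+ cells was 1647 in naive, 1812 in early tolerant, 1475 in tolerant and 3351 in rejecting mice. In CD69- cells it was 57.2 in naive, where the probe was not detected, and 81.6, 120 and 207 in the same order of the other states. The fractions did not overlap, and the rejecting array was the highest within each fraction. CD69+ cells lay 4.24 ± 0.53 above CD69- cells (log2, SD over 4 pairs), at least 21.2-fold in naive mice and 22.2-fold in early tolerant, 12.3-fold in tolerant and 16.2-fold in rejecting mice. These values are of the brightest probe. Another Asns probe, detected on no CD69- array, was at least 6.04-fold higher, and the dimmest of the 3 probes was detected on 1 array only. The order of the states was not the same on that other probe. Its log2 difference was smallest in naive mice, at 3.65, and largest in rejecting mice, at 4.46. Over the 4 pairs the log2 difference was 3.09 with the mean of the 3 probes and 3.45 without background correction. Both are under the naive bound, which is 4.41 on this scale.

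Trib3 encodes a pseudokinase that ATF4 and the factor CHOP turn on under stress and that in turn dampens ATF4. Across 3 of the 4 states its difference lay the other way from that of Asns. CD69- cells of rejecting mice had 142, while naive CD69- cells had 363, early tolerant cells 374 and tolerant cells 546. CD69+ cells had 146 in rejecting, 103 in naive and 74.6 in early tolerant mice, and 60.3, not detected, in tolerant mice. The fractions were therefore apart in every state but rejection, with log2 differences of -1.82 (naive), -2.33 (early tolerant) and -3.18 (tolerant), and level in rejecting mice at 0.04. The mean difference was -1.82 ± 1.36 (SD over 4 pairs), or -2.44 without the rejecting pair. In tolerant mice the difference counts as at least 7.91-fold, since the CD69+ array did not detect Trib3.

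Since both genes are ATF4 targets and their fractions lay in opposite directions, the promoters of Asns and Trib3 are shown. The windows come from RefSeq on GRCm38.p6 and run from 250 bases before to 50 bases after the annotated start of the gene, read 5′ to 3′ on the gene's strand. Capitals mark the core of the response element bound by ATF4 with C/EBP factors, searched on both strands as TGATGNAA. The Asns window lies at chr6:7693160-7693459 on the minus strand and the Trib3 window at chr2:152344011-152344310 on the minus strand.
Asns: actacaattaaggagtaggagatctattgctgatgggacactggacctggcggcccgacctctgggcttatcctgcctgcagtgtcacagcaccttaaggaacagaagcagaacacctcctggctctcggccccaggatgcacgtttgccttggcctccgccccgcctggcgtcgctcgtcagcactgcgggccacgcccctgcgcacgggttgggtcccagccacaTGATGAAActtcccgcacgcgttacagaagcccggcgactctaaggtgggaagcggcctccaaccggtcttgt
Trib3: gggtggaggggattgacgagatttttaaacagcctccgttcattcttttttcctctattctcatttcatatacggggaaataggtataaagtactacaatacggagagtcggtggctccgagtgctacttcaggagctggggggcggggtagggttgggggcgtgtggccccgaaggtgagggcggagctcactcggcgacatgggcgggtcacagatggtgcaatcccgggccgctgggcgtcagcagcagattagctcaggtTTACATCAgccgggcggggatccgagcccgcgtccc
The Asns window held TGATGAAA from -23 to -16, counted from the start of the gene as +1. The Trib3 window held the element on the opposite strand from +15 to +22, where it reads TGATGTAA. A window was found for 9 of the 10 genes, with none for Slc7a5, and the element was in the windows of Asns and Trib3 alone. It was in 3.97% of the 32851 promoter windows of the table and in 2.35% of the 7881 windows of tested genes. Counted by gene, 2.88% of the 6120 tested genes with a window held it. The endoplasmic reticulum stress response element, searched on both strands, was in no window of the 9 genes and in 0.119% of all windows. A match says that these letters stand there and nothing of binding.

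**Figure D1:**
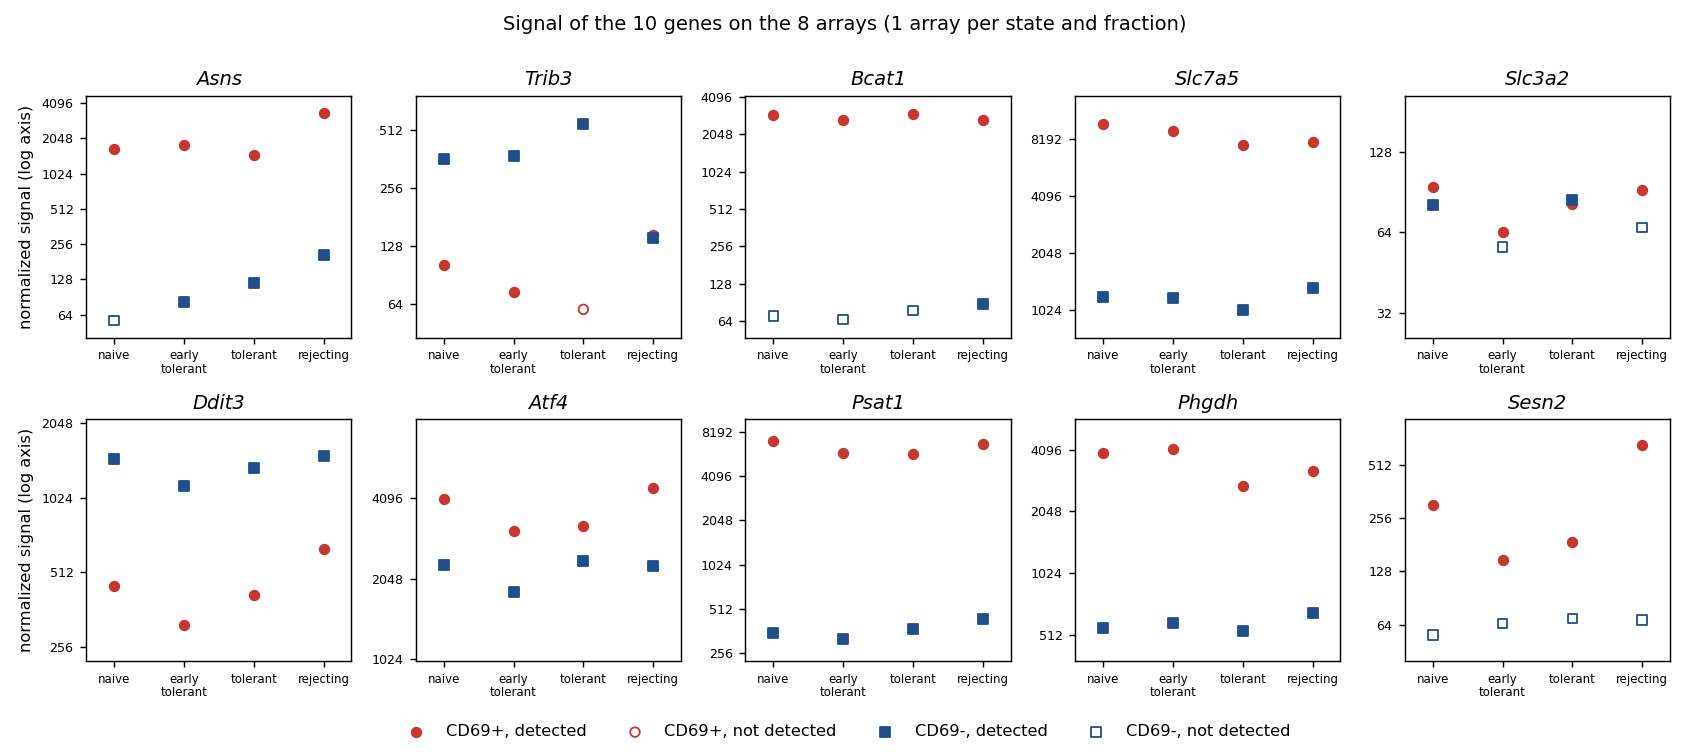
Normalized signal (log axis) of each of the 10 genes on the 8 arrays, by recipient state, with CD69+ cells as circles and CD69- cells as squares, 1 array per point; open symbols were not detected. Asns, Psat1, Phgdh, Bcat1, Slc7a5, Sesn2 and Atf4 lie higher on all 4 CD69+ arrays, Ddit3 lies lower, Slc3a2 overlaps, and the Trib3 points meet in rejecting mice at 142 and 146.

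Psat1 and Phgdh encode enzymes of serine synthesis from a glycolytic intermediate. Phgdh catalyses the entry step, and its signal was 3925 in naive, 4106 in early tolerant, 2739 in tolerant and 3229 in rejecting CD69+ cells. In CD69- cells it lay between 537 and 652. The difference was 2.57 ± 0.28 (log2, SD over 4 pairs). Psat1, the aminotransferase of the following step, had 7110, 5927, 5770 and 6796 in CD69+ cells of the same states and 318 to 438 in CD69- cells. Its difference was 4.12 ± 0.20, a 17.4-fold higher signal in CD69+ cells. For both genes the fractions did not overlap, and their differences were 15.5-fold to 20.3-fold for Psat1 and 4.95-fold to 7.06-fold for Phgdh over the states.

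Bcat1 encodes the cytosolic aminotransferase that starts the breakdown of leucine, isoleucine and valine. Its CD69+ signals were 2912 in naive, 2656 in early tolerant, 2969 in tolerant and 2671 in rejecting mice, a range of 0.16 on the log2 scale. CD69- signals were 65.8 to 87.9, and only the rejecting array detected the gene. The fold was 30.4 in rejecting mice and at least 34.2 (early tolerant), 37.5 (naive) and 37.6 (tolerant) in the others. On its other probes, both undetected in CD69- cells, the signal was at least 1.49-fold and at least 2.10-fold higher. The states lay less close together on the second of these, with log2 differences from 1.24 in tolerant to 2.79 in naive mice. On the first they ran from 1.81 to 2.13. The log2 difference was 3.099 with the mean of the 3 probes and 4.23 without background correction, both under the bounds above.

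Slc7a5 and Slc3a2 encode the light and heavy chains of the transporter LAT1, which brings large neutral amino acids such as leucine into the cell. Slc7a5 had CD69+ signals of 9830 in naive, 9052 in early tolerant, 7639 in tolerant and 7857 in rejecting mice. Its CD69- signals were 1032 to 1337, and the difference was 2.85 ± 0.21 (log2, SD over 4 pairs). The only probe of Slc3a2 was dim, with CD69+ signals of 64.3 to 94.8 and CD69- signals of 56.5 to 84.5, where 2 of 4 arrays did not detect it. Its fractions overlapped, and its difference of 0.21 ± 0.21 was no larger than the spread between the states. Signals this near to background bear little on the level of Slc3a2.

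Sesn2 encodes a sestrin, which binds leucine and restrains mTORC1 when leucine is low, and it is a target of both ATF4 and p53. It was detected on all 4 CD69+ arrays and on no CD69- array. CD69+ signals were 304 in naive, 149 in early tolerant, 187 in tolerant and 658 in rejecting mice, against 56.0 to 69.5 in CD69- cells. Taken over the states, this was at least a 3.48-fold higher signal, from at least 1.91-fold in early tolerant to at least 8.22-fold in rejecting mice. Its other probe was detected on 1 array only. Without background correction the difference was 1.34 on the log2 scale, which is under that bound.

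Atf4, the gene of the factor itself, was higher in CD69+ cells of each state. CD69+ signals were 4064 in naive, 3102 in early tolerant, 3223 in tolerant and 4476 in rejecting mice, and CD69- signals were 2306, 1828, 2397 and 2298. The fractions did not overlap, with a difference of 0.74 ± 0.23 (log2, SD over 4 pairs), or 1.34-fold to 1.95-fold by state.

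Ddit3, which encodes the factor CHOP and is turned on by ATF4 under lasting stress, was lower in CD69+ cells. CD69+ signals were 452 in naive, 316 in early tolerant, 414 in tolerant and 637 in rejecting mice. CD69- signals were 1469, 1136, 1344 and 1506 in the same order. The fractions did not overlap, and the difference of -1.62 ± 0.26 (log2, SD over 4 pairs) was close to the -1.59 of its second probe. Unlike Trib3, Ddit3 stayed apart in rejecting mice, at -1.24.

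**Figure D2:**
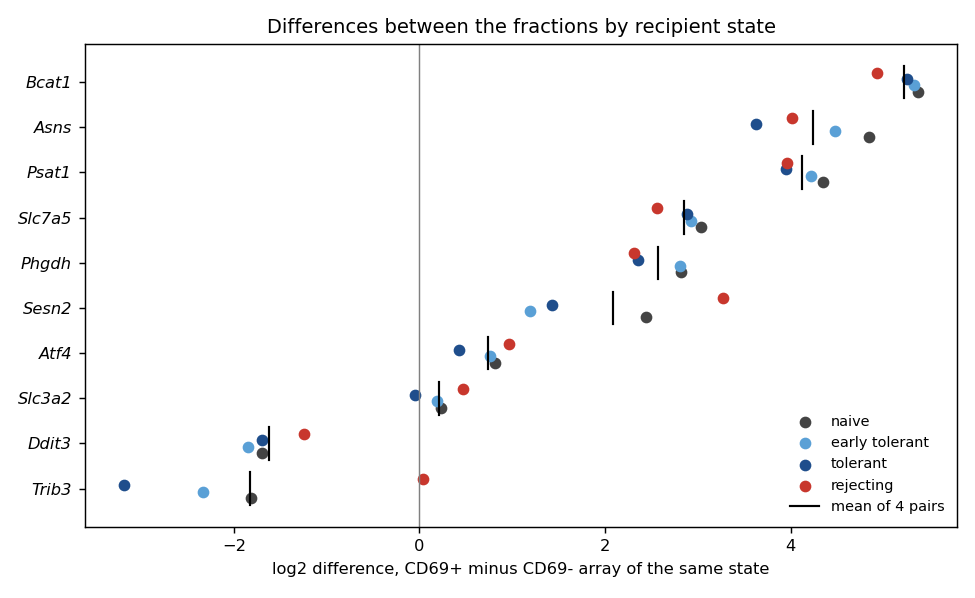
Log2 difference of the CD69+ and CD69- arrays of each recipient state for the 10 genes, with the mean of the 4 pairs as a black line. Differences run from 5.22 for Bcat1 to -1.82 for Trib3, and the states lie far apart for Trib3 and Sesn2 and close together for Bcat1, Psat1 and Slc7a5.

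Across the 10 genes, 7 were higher and 1 lower in the CD69+ array of every state, and 8 had fractions that did not overlap, against 66.2% of all genes tested. Nothing is read from that count, since the genes were chosen on this contrast. The spread of the pair differences was 0.20 for Psat1 and Bcat1, against 0.96 for Sesn2 and 1.36 for Trib3. Over the 8 arrays, Slc7a5 and Phgdh had the closest profiles, with a root mean square difference of 0.17 between their log2 profiles once each was centred on its mean. Asns was closest to Psat1 at 0.49, and Trib3 was closest to Ddit3 at 0.61, while Asns and Trib3 were 3.17 apart. Slc3a2, near background, was 0.29 from Atf4. These distances include the difference between the fractions, on which the genes were chosen. They restate that contrast and are no separate evidence that genes move together.

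The same measure gave the nearest of all 7403 tested genes over the 8 arrays. For Asns these were Tk1, thymidine kinase of DNA synthesis, at 0.28, the mitotic kinase gene Pbk at 0.40 and the MAP kinase phosphatase gene Dusp4 at 0.41. For Trib3 they were Mgarp, a mitochondrial protein gene, at 0.30, P4ha1, a prolyl hydroxylase subunit of collagen synthesis, at 0.36 and Slc2a3, the glucose transporter GLUT3, at 0.37. Mgarp had CD69- signals of 4001 in naive, 2246 in early tolerant, 3563 in tolerant and 995 in rejecting mice, and CD69+ signals of 556 to 1016. P4ha1 had 817, 563, 758 and 196 in CD69- cells and 110 to 155 in CD69+ cells. As for Trib3, the rejecting CD69- array was the low one among the CD69- arrays. These genes were picked for their likeness, so their differences carry no test.

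**Figure D3:**
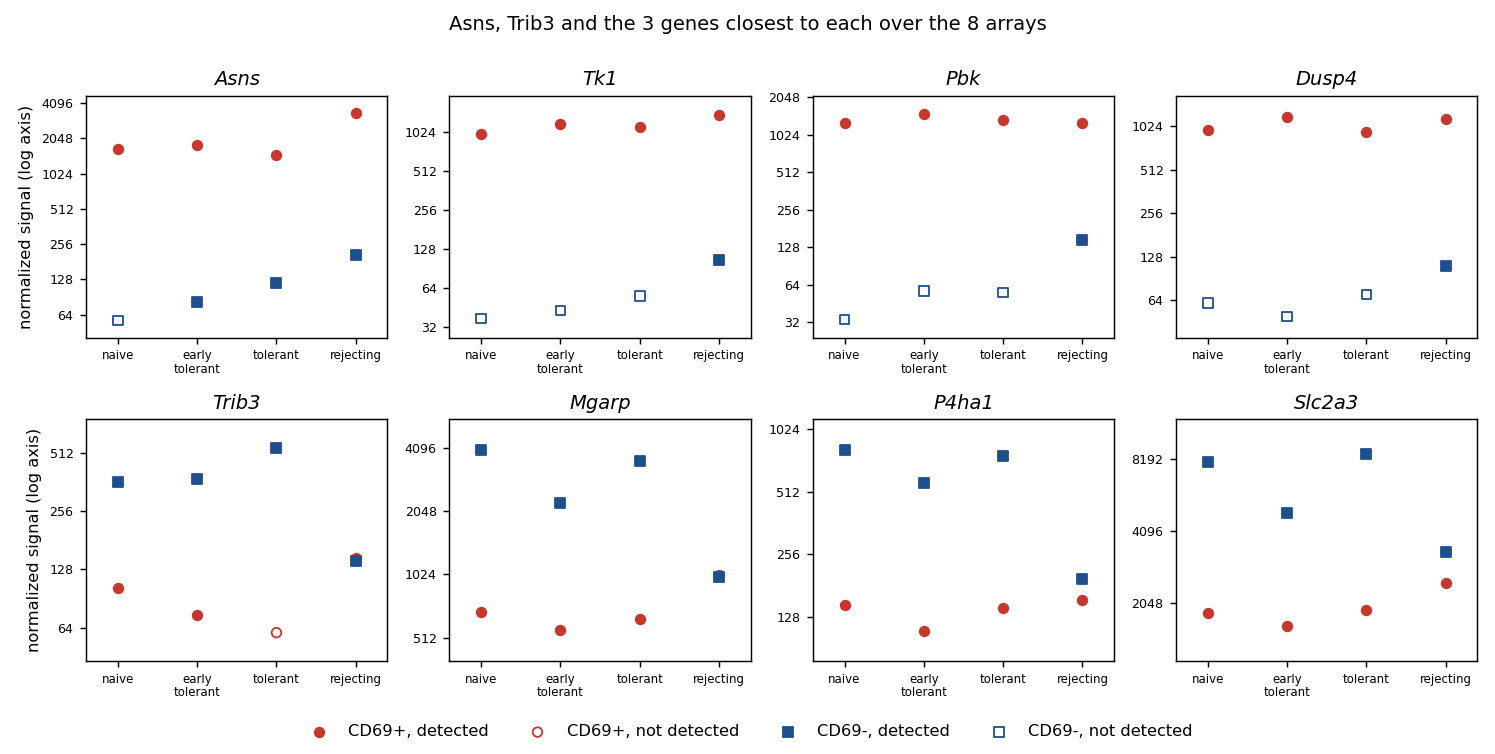
Normalized signal (log axis) by recipient state of Asns and its 3 nearest genes in the upper row and of Trib3 and its 3 nearest genes in the lower row, with CD69+ as circles and CD69- as squares and open symbols for arrays without detection. In the lower row the CD69- signal of the rejecting array is the lowest of the 4 CD69- arrays, at 142 for Trib3 and 995 for Mgarp.

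The other genes of the pathway were taken from 7 lists and tested over the 4 pairs in limma, with recipient state as a block and p-values adjusted over all 7403 genes by the Benjamini-Hochberg method. The 4 states stand in for replicates, so these p-values measure how steady a difference was over the states. Of 72 tested genes in the lists, 35 were higher and 18 lower in CD69+ cells, against 35.2% of all tested genes higher and 38% lower. The lists were chosen with earlier results of these data known, so their counts and p-values are descriptive and no independent support. The median of all tested genes was -0.04. Genes detected on no CD69- array passed the detection filter through CD69+ arrays alone. Their direction was largely set by that filter, so their calls as higher are no separate support.

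Of 17 amino acid enzyme genes listed, 14 had a probe and 9 were tested. All 9 rose in CD69+ cells, with a median of 1.58, or 1.404 with undetected genes at their bounds. Among these, Shmt1 and Gpt2 passed the detection filter through CD69+ arrays alone. Shmt1 and Shmt2 encode the cytosolic and mitochondrial enzymes that turn serine into glycine and feed one-carbon units. Shmt1 was at least 8.32-fold higher (adjusted p = 1.09e-05), with signals of 492 to 820 against 34.0 to 46.6 in CD69- cells, none of which was detected. Without background correction its log2 difference was 2.67, under that bound. Shmt2 rose by 2.89 (SE 0.11, adjusted p = 8.97e-06) and the mitochondrial folate enzyme gene Mthfd2 by 2.14 (SE 0.12, adjusted p = 1.81e-05). Odc1, which encodes ornithine decarboxylase of polyamine synthesis, rose by 2.02. The other 5, named to complete the list, also passed: Aldh18a1, Got1, Bcat2 and Ass1 rose by 0.39 to 1.404, and Gpt2, not detected in CD69- cells, was at least 1.125-fold higher (adjusted p = 8.14e-05). The call of Ass1 was lost without the rejecting pair (adjusted p = 0.0713) or the tolerant pair (adjusted p = 0.0738). Psph, the last enzyme of serine synthesis, was detected on no array. The listed genes Cth, Cbs, Glul and Aldh1l2 were not detected on any array either.

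Of 8 amino acid transporter genes tested, 5 rose, 1 fell and 2 did not pass, with a median of 0.96, or 0.46 at the bounds. The glycine transporter gene Slc6a9 was at least 2.75-fold higher (adjusted p = 0.000172), the cationic amino acid transporter gene Slc7a3 at least 1.96-fold (adjusted p = 0.000886) and Slc1a4, a transporter of small neutral amino acids, at least 1.50-fold (adjusted p = 1.09e-05). None of these was detected in CD69- cells, and Slc7a3 had a log2 difference of 2.42, or 1.23 with the mean of its probes. To complete the 5, Slc7a6, detected on 3 CD69- arrays, rose by 1.26 (adjusted p = 0.000742). Slc16a10, detected on no CD69- array, was at least 1.08-fold higher (adjusted p = 0.0199). Its call was lost without background correction (adjusted p = 0.0875) and without the naive (adjusted p = 0.0852) or tolerant pair (adjusted p = 0.0685). Slc38a2, a sodium-coupled transporter of glutamine and other neutral amino acids and itself an ATF4 target, fell by 1.81 (SE 0.11, adjusted p = 1.93e-05), or fell by 0.91 with the mean of its probes. CD69+ arrays had 1597 to 3036 for this gene, and CD69- arrays 6133 to 9033.

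Of 10 tested genes for eIF2 alpha kinases, phosphatase subunits and partner factors, 4 rose and 5 fell (median -0.28, or -0.33 with bounds). Impact, an inhibitor of GCN2 activation, fell by 1.82 (SE 0.14, adjusted p = 4.34e-05), with signals of 242 to 398 against 980 to 1125. Eif2ak3, which encodes PERK, fell by 1.45 and Ppp1r15a, the stress-induced subunit of the eIF2 alpha phosphatase, fell by 1.46. Atf3, a stress factor downstream of ATF4, passed the test as higher (adjusted p = 0.0082), but it was detected only in naive and rejecting CD69+ cells, and its mean lay under the bound for the CD69- arrays, so no fold is given. Cebpb, a binding partner of ATF4, rose by 0.79 (adjusted p = 0.00156). To complete the 4, Atf5 rose by 0.67 (adjusted p = 0.0069) and the kinase gene Eif2ak2 by 0.47 (adjusted p = 0.0176). The Eif2ak2 call was lost without the naive (adjusted p = 0.0573), early tolerant (adjusted p = 0.0744) or tolerant pair (adjusted p = 0.06). Eif2ak4, which encodes GCN2, was detected on no array.

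Of 7 other ATF4 targets tested, 2 rose, 1 fell and 4 did not pass (median 0.16, or 0.14 with bounds). Chac1, an enzyme of glutathione breakdown, was at least 4.78-fold higher (adjusted p = 1.57e-05), with signals of 240 to 550 against 25.8 to 33.1 in CD69- cells. Nupr1, a small stress-induced chromatin protein gene, was at least 1.10-fold higher (adjusted p = 0.000555). No CD69- array detected either gene, so both passed the detection filter through CD69+ arrays alone. Herpud1, of endoplasmic reticulum protein degradation, fell by 0.38 (adjusted p = 0.0153), a call lost without the naive pair (adjusted p = 0.0526) or the tolerant pair (adjusted p = 0.0554) and with median scaling (adjusted p = 0.0965). Ddit4 and Eif4ebp1, inhibitors of mTORC1 signalling and of cap-dependent translation, did not pass and are named after their values were seen. Ddit4 differed by 2.10 in rejecting mice and by -1.17 in naive mice, by -0.90 in tolerant mice and by -0.62 in early tolerant mice, and Eif4ebp1 by 1.88 in rejecting and -0.24 (naive), -0.92 (tolerant) and -0.08 (early tolerant) in the others. Their CD69- signals in rejecting mice were 1616 and 1628, against 3396 to 5190 and 3181 to 4669 in the other CD69- arrays. Trib3 had its lowest CD69- signal on the same rejecting array. Without the rejecting pair 3 genes of the list fell, as Ddit4 (-0.90, adjusted p = 0.00139) and Stc2, a secreted glycoprotein gene (-0.62, adjusted p = 0.00269), passed too.

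Of 15 tested genes of amino acid sensing, 7 fell and 3 rose (median -0.37), but 1 alone rose without the naive pair or without the tolerant pair. Sesn1, a sestrin gene like Sesn2, fell by 1.90 (SE 0.12, adjusted p = 2.33e-05), from 4235 to 6580 in CD69- cells down to 1009 to 2143 in CD69+ cells. The arginine sensor genes Castor1 and Slc38a9 both fell, Castor1 by 0.85 (adjusted p = 0.000967) and Slc38a9 fell by 0.77 (adjusted p = 0.00179), or fell by 0.41 with the mean of its probes. Rragd, a Rag GTPase of mTORC1 recruitment, rose by 0.89 (adjusted p = 0.0147) and Mtor by 0.43 (adjusted p = 0.0142). Castor2, the remaining gene called higher (0.38, adjusted p = 0.0391), was lost under 7 alternatives, with 0.03 (adjusted p = 0.808) for the mean of its probes. The Mtor call was lost with the mean of its probes (adjusted p = 0.15) and without the naive (adjusted p = 0.06) or the tolerant pair (adjusted p = 0.0524).

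Genes of the unfolded protein response outside the ATF4 branch served for comparison. Among 11 of them that were tested, 7 rose, 2 fell and 2 did not pass. The counts were 4 and 1 without the early tolerant pair, where Hspa5 (adjusted p = 0.0663), Hyou1 (adjusted p = 0.0901) and Pdia4 (adjusted p = 0.0535), genes of chaperones and a disulfide isomerase, were lost. The median of the list was 0.68, and its sign turned, to -0.19, with undetected genes at their bounds. Hspa5 and Hyou1, counted among the 7, were detected on no CD69- array, and their means lay under the bounds for those arrays. Creld2, an endoplasmic reticulum stress gene, rose by 1.93 (SE 0.12, adjusted p = 2.34e-05), the chaperone genes Calr and Hsp90b1 rose by 1.23 and 0.92, and the co-chaperone gene Dnajb9 fell by 1.21 (adjusted p = 8.36e-05), or fell by 0.61 with the mean of its probes. Sel1l, of endoplasmic reticulum protein degradation, fell by 0.38 (adjusted p = 0.0373). That call was lost under 6 alternatives, with adjusted p of 0.0538 to 0.15 in them. Dendritic and myeloid markers were higher in the same contrast, 16 of 17 as given above, and 7 of 9 pan T cell markers were lower.

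**Figure D4:**
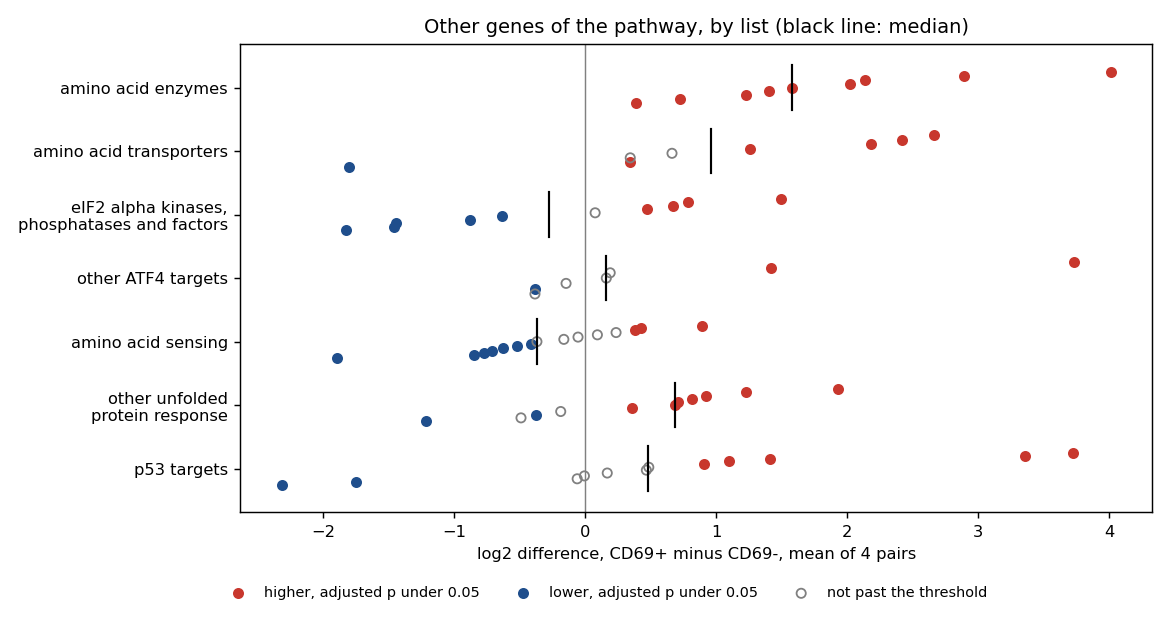
Log2 difference of CD69+ and CD69- cells (mean of 4 pairs) for the tested genes of 7 lists, 1 point per gene, filled where the adjusted p was under 0.05, with the median of each list as a black line. All 9 amino acid enzyme genes lie above 0, while the regulators of eIF2 alpha lie on both sides.

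The next comparisons set recipient states against each other within a fraction, with 1 array on each side and no test. Those of rejecting, tolerant and early tolerant cells share the naive array. Among CD69+ cells, Asns was 2.04-fold higher in rejecting than naive mice (3351 against 1647) and Sesn2 2.17-fold (658 against 304). These were the 2 of 10 genes at least 1.5-fold apart, against 12.4% of all genes tested. Trib3 and Ddit3 had log2 differences of 0.51 and 0.49, and Bcat1, Slc7a5, Psat1 and Phgdh of -0.32 to -0.07.

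In tolerant against naive CD69+ cells, 2 of 10 genes were at least 1.5-fold apart by their normalized signals, against 11.2% of all genes. Sesn2 was 1.62-fold lower (187 against 304) and Trib3 at least 1.49-fold lower, since the tolerant array did not detect it. In early tolerant against naive CD69+ cells, Sesn2 was 2.04-fold lower (149 against 304), the 1 gene of 10 so far apart, against 8% of all genes. Between rejecting and tolerant CD69+ cells, 4 of 10 were at least 1.5-fold apart, against 15.5% of all genes, and all 4 were higher in rejecting cells. Sesn2 was 3.51-fold higher, Asns 2.27-fold, Trib3 at least 2.11-fold and Ddit3 1.54-fold.

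The p53 target list was compared because Sesn2 is also a p53 target. Between rejecting and naive CD69+ cells its 12 tested genes had a median difference of 1.65, against -0.01 for all tested genes and 1.11 for Sesn2. Cdkn1a, the cell cycle inhibitor p21, had CD69+ signals of 634 in naive, 1063 in early tolerant, 764 in tolerant and 5837 in rejecting cells. Over the 4 pairs, 5 of the 12 rose in CD69+ cells and 2 fell (median 0.47, or 0.32 with bounds). Among the 5, Plk2 and Aen were detected on no CD69- array and passed the detection filter through CD69+ arrays alone. The mean of Aen lay under the bound for those arrays. The Plk2 call was lost without the early tolerant pair (adjusted p = 0.0535) and without a detection filter (adjusted p = 0.0715). Phlda3, an inhibitor of Akt, rose by 3.72 (adjusted p = 3.69e-05) and Cdkn1a by 3.36 (adjusted p = 7.18e-05), while the death gene Bbc3 fell by 2.32 (adjusted p = 0.000783; -1.28 with the mean of its probes) and Trp53inp1, a stress protein gene, by 1.75 (adjusted p = 0.00164). Without the rejecting pair 4 of the 12 fell.

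Among CD69- cells, 2 of 10 genes were at least 1.5-fold apart between rejecting and naive mice, against 8.09% of all genes, in opposite directions. Asns was at least 2.66-fold higher (207 against 57.2, not detected in naive) and Trib3 2.56-fold lower (142 against 363). In tolerant against naive CD69- cells, Asns was at least 1.54-fold and Trib3 1.51-fold higher, the 2 of 10 past 1.5-fold, against 6.23% of all genes. Other processing took the Asns log2 difference from naive down to 0.63 in rejecting and 0.38 in tolerant mice. Those values are under the bounds given here, which are 1.41 and 0.63 on that scale. In early tolerant against naive CD69- cells none of the 10 was 1.5-fold apart, against 4.35% of all genes. Among genes detected on both of these arrays the differences ran from -0.37 for Ddit3 to 0.08 for Phgdh. Atf4 differed by -0.39 to 0.14 from naive cells in CD69+ and by -0.34 to 0.06 in CD69- cells. The summed dendritic and myeloid signal of the rejecting array was the lowest in each fraction, at 4906 in CD69+ and 2232 in CD69- cells.

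**Figure D5:**
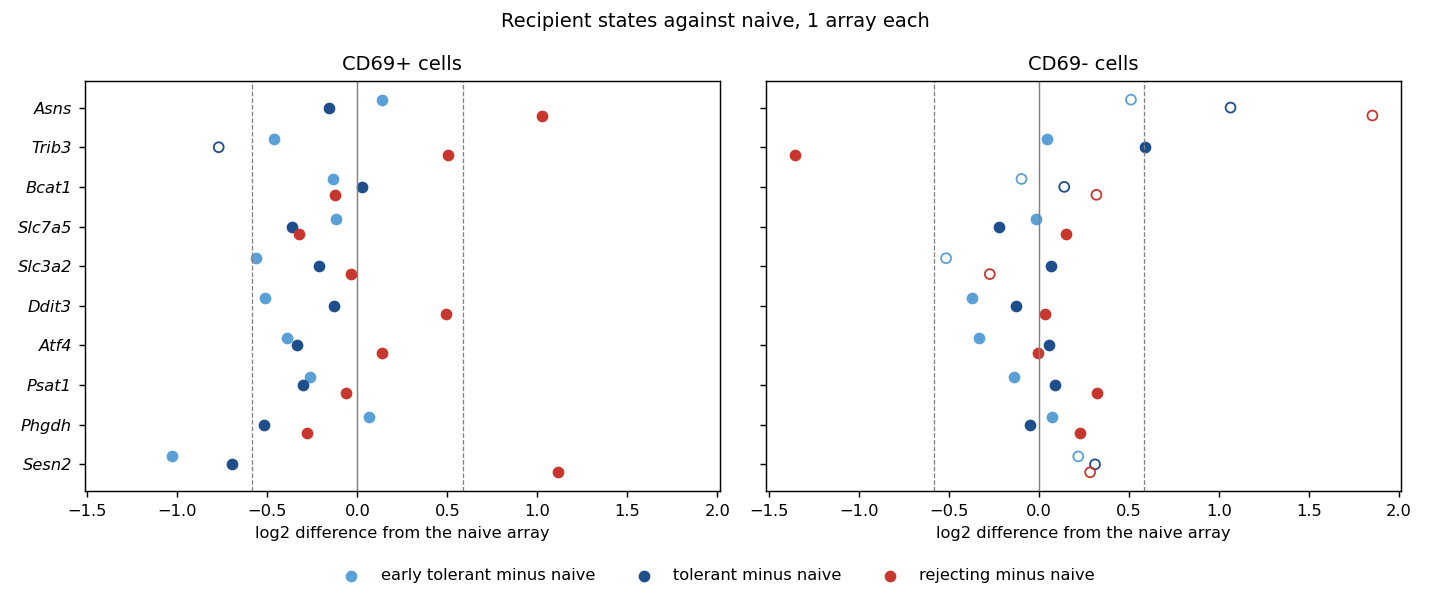
Log2 difference of rejecting, tolerant and early tolerant arrays from the naive array for the 10 genes, in CD69+ cells on the left and CD69- cells on the right; dashed lines mark 1.5-fold and open symbols a comparison with an array that did not detect the gene. In CD69+ cells Asns and Sesn2 lie above 1.5-fold in rejecting mice, at 1.03 and 1.11, and in CD69- cells Trib3 lies at -1.35.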

How the data were processed

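RNA of sorted T cells was measured on 8 Illumina MouseRef-8 arrays, read with BeadStudio 3.1.3 per the submitters' processing notes. Each deposited non-normalized value is the intensity of a probe, beside its detection p-value, per the file headers. A second deposited table, the series matrix, holds intensity values normalized by the authors, by a method that the labels used here do not state. Its columns share their sorted values, with a median of 113. Printed identifiers of the unnormalized table do not line up with its rows: all 25697 probes were matched through their ranks on the 8 arrays, and 78.2% carried another identifier. Series matrix identifiers were used. Symbols came from the platform table (23978 probes with 1 symbol, 1719 with none), updated through RefSeq.

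Intensities were processed with neqc in limma 3.58.1 (R 4.3.3), whose negative-control distribution was inferred from the detection p-values. The offset of 16 makes fold changes of dim genes smaller. The brightest probe stood for a gene. Where no array of a group detected a gene, "at least" folds were taken against the lowest detected signal or the probe's own if higher. The fraction contrast used limma, 2-sided, with state as a block, an adjusted p threshold of 0.05 and 3 residual degrees of freedom, and was tested on simulated data. The fractions of a state were paired, since their deviations from the fraction means correlated by 0.209 to 0.345 in all 4 states. The highest correlations with another state were 0.168 for tolerant and 0.155 for early tolerant mice. Whether both fractions of a state came from the same culture is not stated in the labels used here, and these correlations do not show it. The genes and lists were chosen with earlier results of these data known. All 10 genes are named, with up to 4 called genes of each list by size, up to 2 called the other way, and the 3 genes nearest to Asns and to Trib3. Genes named beyond this rule, undetected, uncalled, called in some fits or through CD69+ detection only, or to complete a list, were chosen after their values were seen. Alternatives changed scaling, background correction, offset, probe, filter, block and states.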

Additional observations from a re-analysis of the deposited data

Results flagged for a closer look

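Among 30 checks on the 10 genes (CD69+ arrays, CD69- arrays and pair differences, 4 values each), 1 value stood apart from the other 3. The log2 signal of Atf4 in early tolerant CD69- cells was 10.84, with the nearest of the other CD69- arrays at 11.17. Chance sets apart about 1 in 20 such groups.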

How the results depend on the processing

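No alternative turned a difference between the fractions for the 10 genes, and 10 of 106 alternative values moved by more than the spread between states. Of their 70 differences between states, 12 changed sign under median scaling or the mean of probes, all no larger than 0.153 in size to begin with, among them Atf4 in rejecting CD69+ (0.14, then -0.01) and tolerant CD69- cells (0.06, then -0.11). None past 1.5-fold turned. With single other probes left aside, Trib3 ranged from -2.44, without the rejecting pair, to -1.25 and Asns from 3.09 to 4.45. Bcat1 ranged from 3.099 to 5.35 and Sesn2 from 1.34 to 2.38. Taken singly, the other probes gave 1.09 and 3.92 for Asns, 1.99 and 2.09 for Bcat1 and 0.95 for Sesn2. All but the 3.92 of Asns lay under these ranges. Asns between rejecting and naive CD69- cells ranged from 0.63 to 1.85, and between tolerant and naive CD69- cells from 0.38 to 1.06. Leaving out the block for recipient state gave 2531 genes higher and 2776 lower, and 34 higher and 17 lower in the 7 lists, where the Castor2 and Sel1l calls were lost. Leaving out each state in turn gave 2346 to 2562 higher and 2507 to 2752 lower genes, with 29 to 35 higher and 16 to 24 lower in the lists. Of 53 calls in the lists, 12 were lost under some alternative and 0 turned.

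Counts of genes at least 1.5-fold apart between states were less steady. From 918 (rejecting), 828 (tolerant) and 592 (early tolerant) against naive and 1151 (rejecting against tolerant) in CD69+ cells, and 599, 461 and 322 against naive in CD69- cells, they became 489, 447, 262 and 724, and 271, 184 and 101, without background correction. With an offset of 50 they were 388 for early tolerant CD69+ and 374, 270 and 170 for CD69- cells. Without a detection filter early tolerant CD69- cells had 538. Median scaling gave 1183 for early tolerant CD69+ cells, 215 higher and 968 lower against 347 and 245, where it moved the median of all genes to -0.28. It moved the higher and lower counts to 387 and 619 from 488 and 430 (rejecting) and to 416 and 499 from 496 and 332 (tolerant) in CD69+ cells, and to 167 and 340 from 239 and 222 (tolerant) and to 75 and 323 from 144 and 178 (early tolerant) in CD69- cells. Between the fractions it gave 2961 higher and 2374 lower genes, with a median of 0.10. The cause was not tested. Without background correction genes undetected in CD69- cells had smaller differences, such as 2.34 in place of 3.73 for Chac1, 1.52 in place of 2.67 for Slc6a9, 1.24 in place of 2.18 for Slc1a4 and 0.73 in place of 1.42 for Nupr1. Signals near background limit Slc3a2, Sesn2, Bcat1 and Trib3, each undetected on some arrays.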

Other observations

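Further genes of amino acid transport and stress differed between the CD69+ arrays of the states, and are given as values chosen after they were seen. Slc7a3 had CD69+ signals of 178 in naive, 98.8 in early tolerant, 72.3 in tolerant and 442 in rejecting mice. Atf3 had 76.9 in naive and 215 in rejecting CD69+ cells, and was not detected in early tolerant or tolerant CD69+ cells. Shmt1 was lowest in rejecting mice, with 820 in naive, 770 in early tolerant, 589 in tolerant and 492 in rejecting CD69+ cells. Chac1 was highest in naive CD69+ cells at 550, with 350 in early tolerant, 240 in tolerant and 431 in rejecting cells. With 1 array per state and fraction none of these differences was tested.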
